A study of Homo sapiens with 4 samples.

Results

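MHC class II molecules and their transactivator CIITA were followed in MDA-MB-468 cells with and without mH2A1.2, through 10 genes (HLA-DRA, HLA-DRB1, HLA-DPA1, HLA-DPB1, HLA-DMA, HLA-DMB, HLA-DOA, CD74, CIITA and CTSS) of 20042 named on the array. Every probe annotated to them was taken, detected or not, which gave 13 of 47230 probes. MDA-MB-468 is an established human breast cancer line. The wild type group is the line without the change, and the knockout group is the same line labelled as a knockout of mH2A1.2, the macroH2A1.2 variant of histone H2A made from the gene MACROH2A1. Each group had 2 samples, and total RNA of each was hybridised to 1 Illumina bead array, all on 1 chip. The sources used here do not say how the gene was removed or whether the knockout is 1 clone. The labels do not say whether the replicates are separate cultures, so the errors (standard errors, 2 arrays per group) cover a spread that may be technical. The 10 genes were chosen by their knockout and wild type signals on these arrays, so their differences are given as a description, with no test.

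MHC class II molecules are paired alpha and beta chains that carry peptides from the endosome to the cell surface, where CD4+ T cells read them. Macrophages, dendritic cells and B cells make them at all times, and epithelial and cancer cells can make them after interferon gamma, which turns on CIITA. CIITA does not bind DNA itself. It docks on a complex of RFX, CREB and NF-Y proteins that sits on a shared set of promoter elements, the X and Y boxes, before the class II genes and CD74. In new molecules the CD74 protein, the invariant chain, plugs the peptide groove, cathepsin S (CTSS) trims it, HLA-DM swaps the remaining piece for a peptide, and HLA-DO restrains HLA-DM.

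The wild type arrays had 18753 and 18991 probes with a detection p under 0.05, the knockout arrays had 19817 and 19318, and 19752 probes passed on at least 2 arrays. Knockout replicate 2 lay farther from wild type than knockout replicate 1, with 2281 and 1631 of the 19752 probes over 2-fold from the wild type arrays, against 531 and 659. Limma's moderated test called 0 of the 19752 (0%) after adjustment at a threshold of 0.05, while 3418 (17.3%) reached an unadjusted p under 0.05. The targeted gene, MACROH2A1, read lower in knockout at ILMN_2373495 (13.04 and 12.96 against 12.32 and 12.12, normalized log2 signal) and ILMN_1746171 (10.66 and 10.54 against 9.68 and 9.46). It read higher at ILMN_1674034 (8.89 and 8.56 against 9.71 and 9.30), and its other probe was undetected. Which splice forms these probes reach is not stated in the sources used here, so they check the knockout label only in part. EPCAM and KRT8, epithelial genes, were detected on all 4 arrays, and CDH1 and KRT5 on none. A further limit touches dim probes. The detection p of 147 probes did not follow their signals, none of them a class II probe, and on each array 101 to 105 of them were called detected while dimmer than the brightest undetected probe. With these 147 in, the negative control spread inferred for background correction was 47.2 to 83.9 signal units, and with them removed it was 10.1 to 11.2. Fitted class II differences near background, and related ones that this removal moved by over 1.5 times, are also given with the 147 probes removed. Bounds are given with the 147 probes in.

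Of the 13 probes, 6 were detected on all 4 arrays, and all 6 read higher on both knockout arrays. They belong to HLA-DRA, HLA-DMA, HLA-DMB and CD74, with differences between 2.03 and 2.93 on the log2 scale, or 4.08-fold to 7.62-fold. HLA-DPA1 was detected on both knockout arrays and on wild type replicate 1. CIITA and the dimmest CD74 probe were detected on the knockout pair only, HLA-DOA on 1 knockout array, and HLA-DRB1, HLA-DPB1 and CTSS on none. By deposited signal 11 of the 13 probes had both knockout arrays above both wild type arrays and 1 had both below, where 17.4% of all 47230 probes lay above and 21.9% below. The 9 probes of 6 genes that passed the detection filter had a median difference of 2.33, and all 13 probes a median of 2.03. The median over all 19752 kept probes was -0.01. CIITA and the dimmest CD74 probe passed that filter through knockout alone, so their place above wild type was built in. HLA-DPA1, detected on only 1 wild type array, also needed a knockout array to pass.

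**Figure D1:**
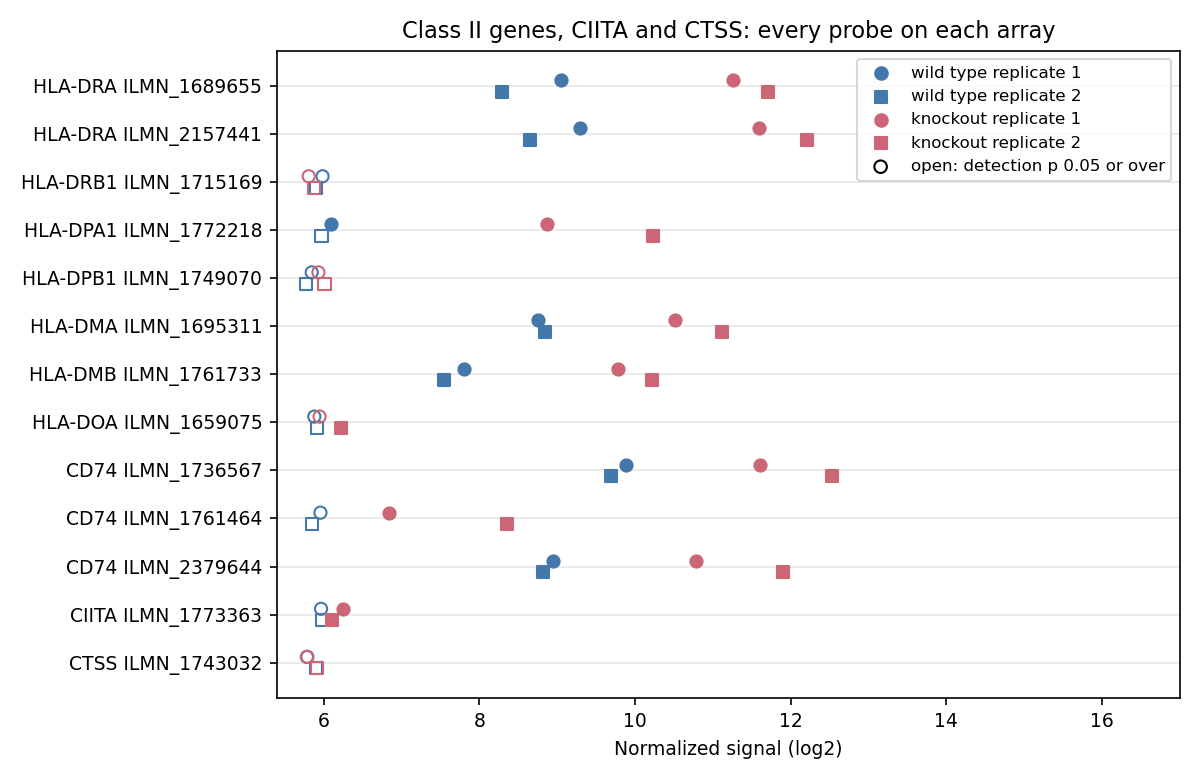
Normalized signal (log2, horizontal axis) of every probe of the 10 genes on each of the 4 arrays. Blue marks are wild type, red marks knockout, circles replicate 1 and squares replicate 2, and open marks have a detection p of 0.05 or over. Red marks lie to the right of blue at HLA-DRA, HLA-DPA1, HLA-DMA, HLA-DMB and CD74, while HLA-DRB1, HLA-DPB1 and CTSS sit at background on all 4 arrays.

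HLA-DRA, the alpha chain of HLA-DR, the most widely made class II molecule, was measured by 2 probes that gave the same picture. Probe ILMN_2157441 had deposited signals of 771 and 565 on wild type replicates 1 and 2 and 3311 and 4409 on knockout replicates 1 and 2. Both knockout arrays lay well above both wild type arrays, and the gene was already detected in wild type. The normalized difference was 2.93 ± 0.33 on the log2 scale, or 7.62-fold higher. Probe ILMN_1689655 gave signals of 672 and 468 against 2640.0 and 3127. Its difference was 2.81 ± 0.32, or 7.02-fold. The gap between the wild type arrays at this probe, 0.75 on the log2 scale, was the widest wild type gap of the 9 kept probes.

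The beta chain that pairs with HLA-DRA could not be followed at the probe annotated to HLA-DRB1. That probe, ILMN_1715169, gave 147 and 138 on the wild type pair and 127 and 132 on the knockout pair, with detection p of 0.114 and 0.377 against 0.790 and 0.514. It was at background on every array, so no fold is given. Probes annotated to related beta genes were not. HLA-DRB4 probe ILMN_1752592 gave 339.9 and 271 against 1039.97 and 1658, a difference of 2.88 ± 0.40. The knockout arrays were the higher pair, with replicate 2 the highest, as for HLA-DRA. HLA-DRB6, a beta chain pseudogene, gave differences of 2.92 ± 0.37 at ILMN_2066066 and 2.16 ± 0.36 at ILMN_2066060 (2.76 with the irregular probes removed). HLA-DRB3 overlapped between groups, with 517 and 502 against 482 and 640.1 (0.28 ± 0.27). The other HLA-DRB4 probe kept, ILMN_1679617, differed by -0.07 ± 0.10 (-0.23 with the irregular probes removed). The DRB genes are near-identical, differ in number between people and cell lines, and were read here without probe sequences. Which beta gene each of these probes reads in this line is therefore uncertain.

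HLA-DPA1, the alpha chain of HLA-DP, was measured by 1 probe that was near background in wild type. That probe, ILMN_1772218, had signals of 159.7 and 148 in wild type, with detection p of 0.00649 and 0.122, and 605 and 1219.7 in knockout. Wild type was at the edge of detection and both knockout arrays were far above it. The fitted difference was 3.52 ± 0.49 on the log2 scale, or 11.4-fold, and rests on a wild type mean that includes an undetected array. Taken alone, knockout replicate 1 differed from wild type by 2.84 and replicate 2 by 4.20. With no background correction the difference over all arrays was 2.55, below the 2.64 of HLA-DRA at ILMN_2157441 in that setting, and with the 147 irregular probes removed 4.41 ± 0.47, so the size depends on how background is set. HLA-DPB1, the HLA-DP beta chain, was not detected at ILMN_1749070, with signals of 129 and 122 against 143 and 148 and detection p from 0.0649 to 0.886. Levels of different probes cannot be set against each other, so the alpha and beta chains are not compared.

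HLA-DMA and HLA-DMB encode the 2 chains of HLA-DM, and both read higher in knockout. HLA-DMA gave 567 and 623 on the wild type pair and 1615 and 2131 on the knockout pair, which differ by 2.03 ± 0.24 on the log2 scale, or 4.08-fold. HLA-DMB had signals of 356 and 329.8 against 1017 and 1212, a difference of 2.33 ± 0.20, or 5.01-fold. The groups were far apart at both genes, and both were detected on all 4 arrays. HLA-DOA, the alpha chain of HLA-DO, was detected on knockout replicate 2 alone. Its signals were 133 and 141 against 145 and 172. Knockout replicate 1 was itself undetected, with a detection p of 0.187, so no fold is given. The fitted difference, which includes undetected arrays, was 0.19 ± 0.11 on the log2 scale, or 0.65 with the irregular probes removed.

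CD74 was measured by 3 probes, all higher on both knockout arrays. Probe ILMN_1736567 gave 1101 and 1023 on the wild type pair and 3319.5 and 5521 on the knockout pair, which differ by 2.28 ± 0.35 on the log2 scale, or 4.87-fold. Probe ILMN_2379644, annotated to another transcript record, had 634 and 615 against 1908 and 3540.5, a difference of 2.46 ± 0.41, or 5.51-fold. At both, knockout replicate 2 was the highest array and the wild type arrays were close together. The dimmest probe, ILMN_1761464, gave 143 and 132 in wild type, not well above background, against 239.5 and 434. The ratio of its uncorrected signals, knockout over wild type, was 2.45, and on the background-corrected scale the knockout mean was at least 2.97-fold higher, so that bound depends on the correction. Its fitted difference was 1.70 ± 0.55, 1.27 with no background correction and 2.95 ± 0.51 with the irregular probes removed. It was 0.94 without knockout replicate 2 against 2.46 without knockout replicate 1. CTSS, the protease that trims CD74, was not detected on any array. It gave 120.5 and 138 against 125 and 137, and the groups overlapped.

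CIITA was close to background on all 4 arrays, and the size of its difference varied with the processing. Its single probe, ILMN_1773363, had signals of 144 and 149 in wild type, with detection p of 0.157 and 0.112, and 179 and 159 in knockout, with detection p of 0 and 0.00909. Both knockout arrays were above both wild type arrays, and knockout replicate 1 was the higher of the pair. The difference was 0.20 ± 0.11 on the log2 scale, with a bound of at least 1.11-fold. It was 0.21 with no background correction, 0.42 on the authors' processed values and 0.72 ± 0.24 with the 147 irregular probes removed. The order of the knockout arrays was the reverse of that at the other 8 kept probes, where replicate 2 exceeded replicate 1. Against the wild type mean, knockout replicate 1 differed by 0.27 at CIITA and by 2.62 at HLA-DRA (ILMN_2157441), and replicate 2 by 0.13 and 3.24.

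**Figure D2:**
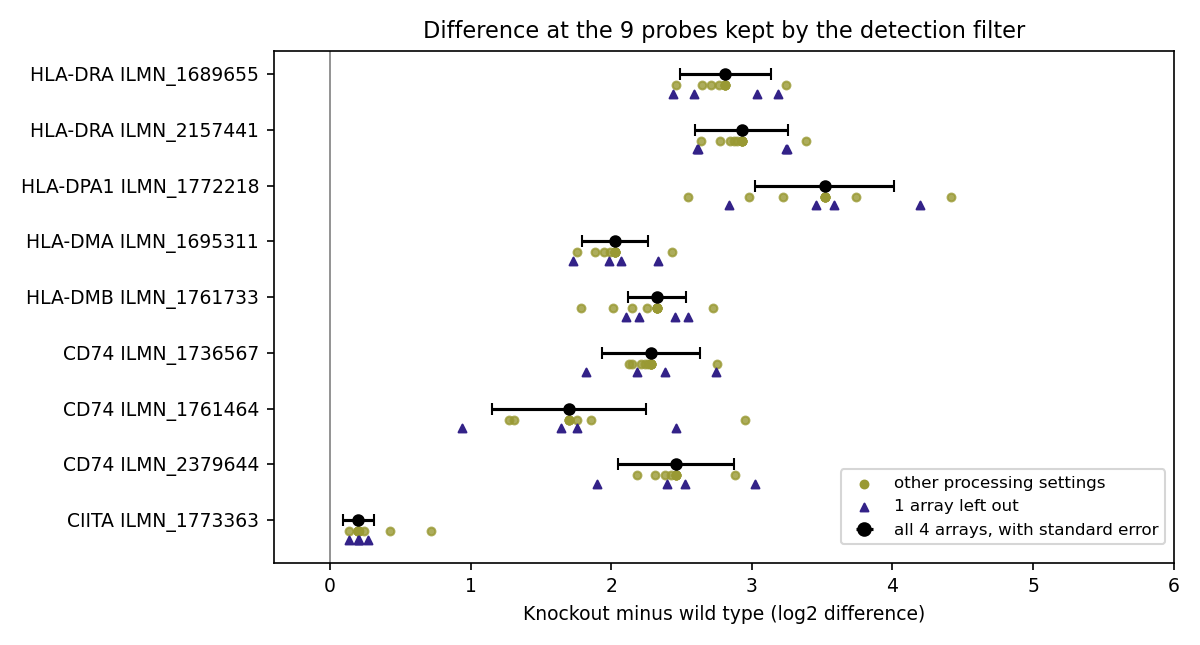
Knockout minus wild type (log2, horizontal axis) at the 9 kept probes. Black points are the value over all 4 arrays with its standard error, olive points other processing settings and blue triangles values with 1 array left out. Every point lies above 0, from 0.13 at CIITA to 4.41 at HLA-DPA1.

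The 6 probes detected on all 4 arrays differed from the wild type mean by 1.73 to 2.62 on knockout replicate 1 and by 2.33 to 3.24 on knockout replicate 2. On the authors' processed values their differences were 1.89 to 2.77. The profile of HLA-DRA over the 4 arrays was set against those of the 11305 other genes outside the list, each by its brightest kept probe, as the root mean square difference of log2 deviations from the gene's own mean. The nearest were HLA-DRB4 at 0.111, HLA-DRB6 at 0.146, SCG2, a secreted granin, at 0.267, HMOX1, heme oxygenase, at 0.327 and ABCC3, an export pump, at 0.345. Among the 10 genes themselves HLA-DMB lay at 0.338, CD74 at 0.376, HLA-DPA1 at 0.433 and HLA-DMA at 0.520. CIITA, which was close to background, lay at 1.41, with rank 3049. Its difference was 0.20, and 0.72 with the irregular probes removed, so this distance depends on how background is set. The 4 arrays in 2 groups carry little more than the group difference, so nearness here says mainly that a gene differs by a like amount.

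The start regions of 7 of the 10 genes were in the RefSeq promoter table (GRCh38.p14). They are shown because these genes are known to share X and Y boxes, which the data cannot test directly. HLA-DRA, CIITA and CTSS had no entry. The 130 bases before each annotated start are printed 5′ to 3′ on the gene's strand, and for HLA-DPA1 the entry of the pair that holds a match. Capitals mark AGNNACNGA on the gene's strand, a core taken from the X box consensus, and ATTGG on either strand, the NF-Y core of the Y box, which reads CCAAT on the other strand.
HLA-DMA, chr6:32953098-32953227, minus strand: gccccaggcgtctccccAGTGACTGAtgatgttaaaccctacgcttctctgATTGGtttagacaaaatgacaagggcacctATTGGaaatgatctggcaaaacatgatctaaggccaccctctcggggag
HLA-DMB, chr6:32941029-32941158, minus strand: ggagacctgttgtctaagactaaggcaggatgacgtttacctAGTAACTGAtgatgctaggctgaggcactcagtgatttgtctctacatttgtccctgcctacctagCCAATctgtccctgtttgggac
HLA-DPA1, chr6:33073650-33073779, minus strand: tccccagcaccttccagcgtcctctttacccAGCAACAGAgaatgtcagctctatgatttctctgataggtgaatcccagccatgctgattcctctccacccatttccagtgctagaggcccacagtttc
CD74, chr5:150412911-150413040, minus strand: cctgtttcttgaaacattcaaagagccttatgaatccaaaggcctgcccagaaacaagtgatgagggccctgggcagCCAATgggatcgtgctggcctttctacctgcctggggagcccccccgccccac
HLA-DOA, chr6:33009592-33009721, minus strand: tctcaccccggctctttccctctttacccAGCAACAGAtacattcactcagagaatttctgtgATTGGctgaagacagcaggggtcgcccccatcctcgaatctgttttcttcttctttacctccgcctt
HLA-DRB1, chr6:32589849-32589978, minus strand: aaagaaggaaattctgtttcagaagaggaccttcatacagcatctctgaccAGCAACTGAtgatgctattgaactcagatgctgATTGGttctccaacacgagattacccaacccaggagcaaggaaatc
HLA-DPB1, chr6:33075860-33075989, plus strand: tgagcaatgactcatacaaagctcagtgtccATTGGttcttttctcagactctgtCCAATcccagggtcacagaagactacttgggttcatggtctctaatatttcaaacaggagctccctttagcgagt

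Of the 7 stretches, 5 held AGNNACNGA on the gene's strand, beginning from position -113 to position -79 relative to the start, and 6 held ATTGG. The HLA-DPA1 stretch was picked because it holds AGNNACNGA, so its match was fixed by that choice, and the entry left out held neither core. Over all 35116 promoter windows of 300 bases, none picked for a match, 15.3% held AGNNACNGA and 34.6% held ATTGG, on either strand. AGNNACNGA followed by ATTGG after 20 to 30 bases was found in 0.157% of windows and in 3 of the 7 genes, HLA-DMA, HLA-DOA and HLA-DRB1, with gaps of 25, 25 and 24 bases. The core and the spacing were set after these sequences were read. The pair stood before HLA-DMA, which read 4.08-fold higher in knockout, and before HLA-DOA and HLA-DRB1, whose probes were at or near background. It was not found as spelled before HLA-DMB, CD74 and HLA-DPA1, which read higher in knockout, or before HLA-DPB1, which was undetected. A match is letters only, and a stretch without one may hold a looser form.

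On chromosome 6 the class II genes lie together, mixed with genes of other function (antigen supply to class I, a chromatin reader and others). Between HLA-DRA and HLA-DPB1, in RefSeq order, a stretch chosen after the values were seen, 8 probes of 6 class II genes were kept, and all 8 had both knockout arrays above both wild type arrays. This count has no weight of its own, since 5 of the 8 belong to the 10 chosen genes and HLA-DQB1 passed the filter through knockout alone. The class II genes of the stretch with no kept probe were all at or near background. HLA-DRB1 and HLA-DQA2 were lower on both knockout arrays, HLA-DOA and HLA-DPB1 were higher, and the groups overlapped at HLA-DRB5 and HLA-DOB. Of 10 kept probes of 5 other genes in that stretch, 6 lay above and 2 below, with a median of 0.36. Among the 10 annotated genes on each side, 5 of 16 kept probes lay above and 1 below, with a median of 0.12. Over all kept probes 23.8% lay above and 26.2% below. Genes of class I peptide supply between HLA-DOB and HLA-DMB, described here for their position, gave 1.66 ± 0.10 and 0.45 ± 0.12 at the PSMB9 probes, 0.28 to 0.69 at PSMB8, 0.27 ± 0.20 at TAP1, and -0.79 ± 0.18 and 0.07 ± 0.19 at TAP2. BRD2, a chromatin reader next to HLA-DMA and HLA-DOA, read lower at -0.36 ± 0.16.

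**Figure D3:**
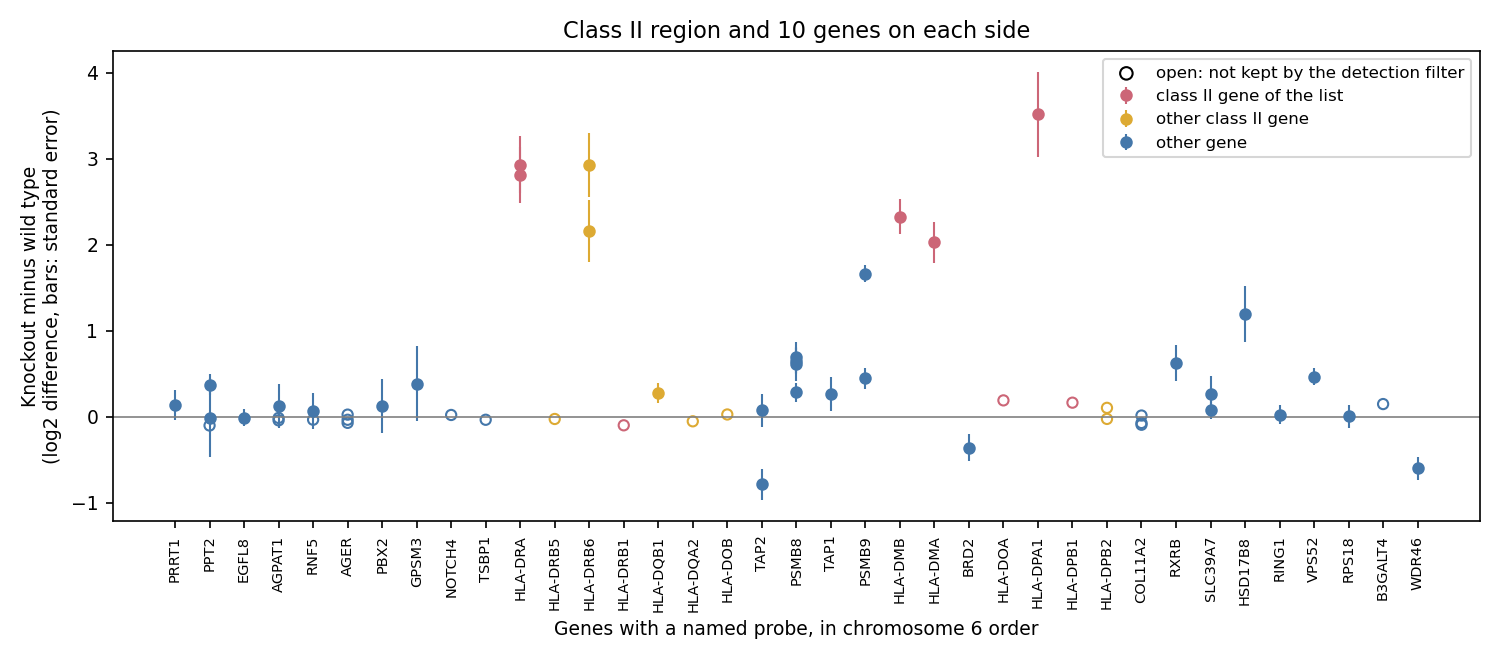
Knockout minus wild type (log2, vertical axis, bars: standard error) for every named probe of the class II stretch and of the 10 genes on each side, in chromosome 6 order. Red points are the class II genes of the list, yellow other class II genes and blue other genes, and open points did not pass the detection filter. Points above 2 belong to HLA-DRA, HLA-DRB6, HLA-DMB, HLA-DMA and HLA-DPA1.

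Of 10 other class II genes 8 had a probe, with 12 probes in all. Of these, 6 probes of 4 genes were kept, with 0 passing limma's test in either direction (3 higher and 0 lower at an unadjusted p under 0.05). Over all kept probes 17.3% reached that unadjusted p. The 6 kept probes had a median of 1.22, and all 12 probes 0.06. HLA-DQB1, the HLA-DQ beta chain, gave 137 and 144 in wild type, not well above background, against 165 and 178. The knockout mean was at least 1.12-fold higher, and the fitted difference was 0.27 ± 0.12, or 0.95 ± 0.25 with the irregular probes removed. HLA-DOB, HLA-DQA2, HLA-DRB5 and HLA-DPB2 were not detected on any array.

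The proteins on which CIITA docks and its enzymatic partners read in both directions. Of 14 genes 13 were kept, with 21 probes, of which 0 passed over all probes in either direction (1 higher and 1 lower at an unadjusted limma p under 0.05). The median was -0.05, with 3 probes above and 7 below wild type on both knockout arrays, and it turned to 0.21 when arrays were scaled to equal medians, which moved the median of all probes to 0.16. Over all kept probes 23.8% lay above wild type on both knockout arrays and 26.2% below, and 17.3% had an unadjusted p under 0.05 in either direction. KAT2B, an acetyltransferase that modifies CIITA, read 8.38 and 8.42 (log2) on the wild type arrays and 8.86 and 9.35 on the knockout arrays, differing by 0.70 ± 0.20. CREBBP, a coactivator acetyltransferase, had 9.50 and 9.30 against 9.04 and 8.61 (-0.57 ± 0.19). The groups did not overlap at either gene. SMARCA4, a chromatin remodelling ATPase, differed by -0.24 ± 0.11, and RFXANK, a subunit of RFX, by -0.40 ± 0.22 at ILMN_2399497, with 0.12 and -0.13 at its other probes. EZH2, the histone H3 lysine 27 methyltransferase named in the series title, gave 9.16 and 9.07 against 8.57 and 8.25 at ILMN_1708105 (-0.70 ± 0.15) and -1.04 ± 0.35 at ILMN_2364529, and the groups overlapped at ILMN_1652913.

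The route from interferon gamma to CIITA was detected in part. Of 11 genes 10 had a probe and 8 were kept, with 10 probes. None passed over all probes by limma. At an unadjusted limma p under 0.05 there was 1 higher and 0 lower, against 17.3% of all kept probes in either direction. The median of the list was 0.04. IFNGR1, the ligand-binding chain of the interferon gamma receptor, read 9.62 and 9.37 (log2) on the wild type arrays and 9.87 and 10.01 on the knockout arrays, differing by 0.44 ± 0.14. IFNGR2, the second chain, differed by 0.40 ± 0.19. USF1, a factor that acts at a CIITA promoter, differed by -0.25 ± 0.14 and IRF2 by 0.15 ± 0.12 (0.45 with the irregular probes removed). IRF1, which interferon gamma induces and which acts on CIITA, overlapped between groups, with 9.55 and 9.40 against 9.53 and 9.10. It is named after its values were seen. JAK2 and NLRC5, the class I counterpart of CIITA, were not detected on any array.

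Enzymes that make peptides in the endosome, with their inhibitors, also read in both directions. All 14 genes of this list had probes, and 19 probes of 13 genes were kept. None passed over all probes by limma, and the median was 0.18. At an unadjusted limma p under 0.05 there were 1 higher and 2 lower, against 17.3% of all kept probes in either direction. CTSD, an aspartic protease, read 9.22 and 9.40 (log2) on the wild type arrays and 10.80 and 11.38 on the knockout arrays, differing by 1.78 ± 0.23. CTSV, a relative of cathepsin S that cuts CD74 in the human thymus, had 9.76 and 9.47 against 8.55 and 8.49, a difference of -1.09 ± 0.14. IFI30, the thiol reductase that opens disulfide bonds of antigens, had 7.42 and 7.21 against 6.85 and 6.56 (-0.61 ± 0.16). It lay opposite to the class II genes on both knockout arrays. CSTB, a cathepsin inhibitor, differed by 0.28 ± 0.10.

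CD74 is also a surface receptor for MIF and DDT, working with CD44. DDT read 11.49 and 11.59 (log2) on the wild type arrays and 11.91 and 11.85 on the knockout arrays, differing by 0.34 ± 0.11, and MIF differed by 0.30 ± 0.11. CD44 differed by -0.16 ± 0.10 at its brightest probe, ILMN_1803429. Of the 5 kept probes of this list, with a median of 0.09, 0 passed over all probes by limma and 1 was higher at an unadjusted p under 0.05. Over all kept probes 17.3% reached that unadjusted p. Costimulatory genes, which a T cell needs beside class II, gave a median of 0.04 over 11 kept probes, with 0 passing by limma and 0 at an unadjusted p under 0.05. ICAM1, an adhesion molecule, differed by 0.63 ± 0.34, CD58 by 0.34 ± 0.22, CD83 by -0.42 ± 0.34 and CD80 by -0.11 ± 0.11, the last near background (-0.38 with the irregular probes removed).

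**Figure D4:**
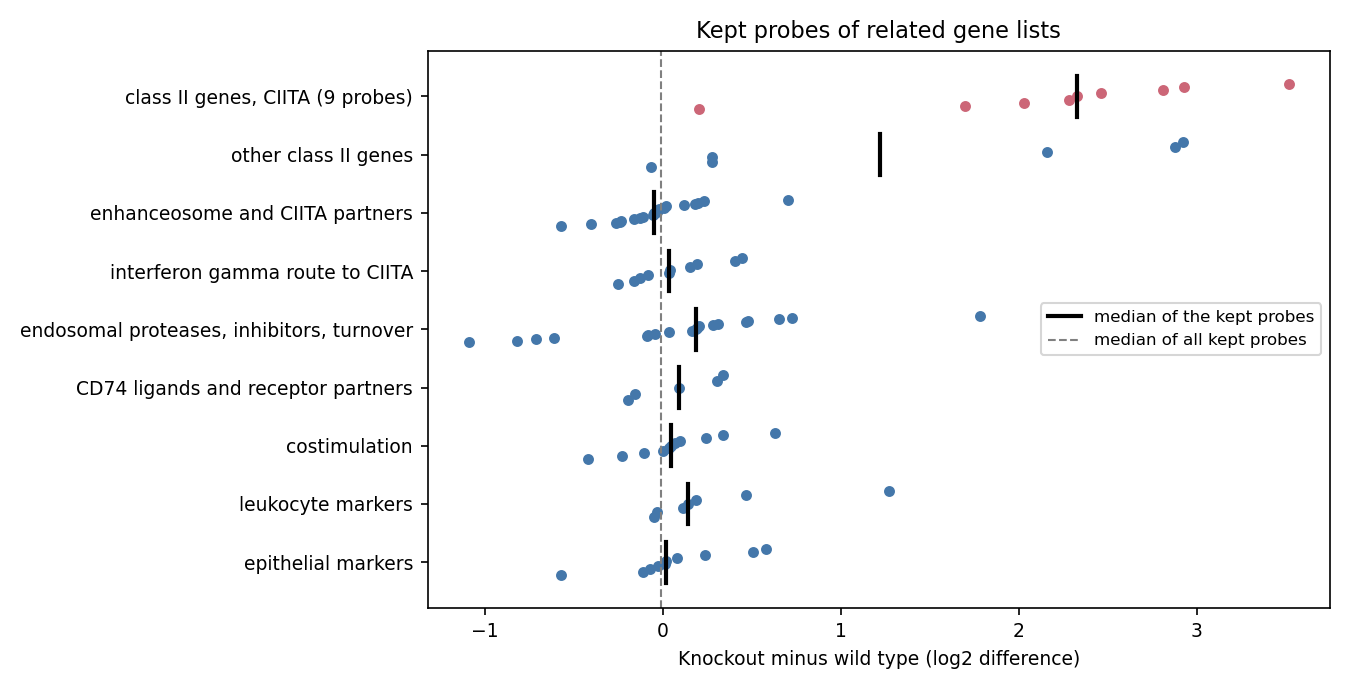
Knockout minus wild type (log2, horizontal axis) of every kept probe of the class II genes and CIITA (red) and of 8 related lists (blue). Black bars are the median of each list and the dashed line is the median of all kept probes. The medians of the lists other than class II lie between -0.05 and 0.18.

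Leukocytes make class II molecules, so their markers are given beside them. Of 16 marker genes with a probe 8 were detected on no array, namely PTPRC, the leukocyte common antigen, SPI1, ITGAM, ITGAX, CD3E, LYZ, FCER1A and CD1C. The summed signal over the list's 32 probes was 4522 and 4734 on the wild type arrays, against 4688 and 4901. Of these 32 probes 21 were detected on no array. The sum is therefore mostly background and cannot show whether the amount of such cells differed. The 7 kept probes had a median of 0.14, or 0.50 with the irregular probes removed, and the part of such cells in the class II differences was not tested. Of the 7, 2 (both of CD79B) were detected on the knockout arrays only and passed the filter through them. Over the 7, 0 passed over all probes by limma. An unadjusted limma p under 0.05 was reached by 17.3% of all kept probes and by 1 of the 7, which was higher. This was CD14, a monocyte receptor that some epithelial cells make, with readings of 6.63 and 6.64 against 7.45 and 8.36 (log2) (1.27 ± 0.33). LAPTM5 differed by 0.46 ± 0.35, CD79B by 0.18 ± 0.16 at ILMN_2366212, one of those 2, and CORO1A by 0.14 ± 0.10. Of the 7 kept probes 5 differed upward and 2 downward, the lowest at -0.05. With the irregular probes removed ILMN_2366212 differed by 0.55 and CORO1A by 0.50. In that setting CSF1R, named after its values were seen, differed by -0.18, and CD79B by -0.12 at ILMN_1710017. In bulk RNA, more cells with class II transcripts and more transcripts per cell cannot be told apart. Among epithelial markers, with a median of 0.02 over 10 kept probes, 4 of them EGFR probes with irregular detection p, 1 was higher and 1 lower at an unadjusted limma p under 0.05 and 0 passed over all probes. KRT8 differed by 0.51 ± 0.12, KRT18 by -0.57 ± 0.11 at ILMN_1730848 (-0.87 with the irregular probes removed) and -0.11 ± 0.26 at its brighter probe, EGFR by 0.58 ± 0.36 and EPCAM by 0.08 ± 0.13.

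With 1 knockout array left out the count of calls over all probes moved. Without knockout replicate 1, limma called 3958 of 19752 probes (20%). Without knockout replicate 2 it called 3 probes (0.0152%). Both fits take the spread of a lone knockout array to be that of the wild type pair. Without either wild type array 0 probes passed. The calls are not counted among the class II probes, which were chosen by this same contrast.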

How the data were processed

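Per the file headers, the authors' deposited table holds an average signal intensity for every probe and array, each with its detection p-value. The submitters' processing notes name GenomeStudio, with no version in the sources used here. The intensities are labelled as non-normalized. The authors also deposited processed log2 values of 47164 probes, made by a normalization that the sources used here do not state. As deposited, these values were not centred by gene. For the comparison, they and the log2 intensities of the same arrays were each centred by probe, over 19736 kept probes. The centred values then correlated at 0.954 to 0.975.

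Array positions in the header were matched to the sample descriptions. Limma's normexp correction inferred negative controls through the detection p-values (offset 16), then quantile normalization and log2 followed, in R 4.3.3 with limma 3.58.1. A probe was kept if its detection p was under 0.05 on 2 or more arrays. Symbols came from GEO's platform annotation, which names 1 gene for 30074 probes and several for 8 and leaves 17148 unnamed here. Of these symbols 30035 were matched by Entrez ID to RefSeq names. The build behind the probes is not stated, so none of their coordinates are given. The linear model of limma was fitted over all kept probes, with a two-sided moderated test and Benjamini-Hochberg adjustment. The steps were tested on simulated data. Where a whole group was undetected, a fold is a bound against the higher of the probe's own signal and the highest signal of an undetected probe on each array. The members and lists were chosen with earlier results of these data known. Genes named are the 10 members, MACROH2A1, EZH2, the 4 smallest p of each list and the 5 profiles nearest HLA-DRA, and others are said to be chosen by position or after their values were seen. Leaving out the probes with irregular detection p was added after the data were seen. The other alternatives were the background correction, the scaling, the detection filter, the rule for several probes of a gene, the authors' values, the variance fit, a replicate block and leaving out each array.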

Additional observations from a re-analysis of the deposited data

How the results depend on the processing

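At the 9 kept class II probes all 135 values from other settings were above 0, which non-overlapping groups largely fix. Of these, 125 lay within 1 standard deviation between replicates of the reported value, a count also largely fixed. The detection filters, the variance fits and the replicate block leave a probe's difference unchanged. Leaving out 1 array cannot move it beyond that deviation. The 10 that moved further came from the background correction, the scaling, the authors' values or the removal of irregular probes. The median over the class II probes ran from 1.90 to 2.75. With the replicate number as a block 0 probes passed. That median stayed at 2.33 by design, since both groups hold the same replicate numbers and only the standard errors can change. The labels do not pair the arrays, and deviations of same-numbered arrays from their group means correlated at 0.49 across probes. With 1 array left out, calls ran from 0 to 3958 (0 without either wild type array, 3 without knockout replicate 2, 3958 without knockout replicate 1), and list medians from 0.94 to 1.63 for other class II genes, -0.090 to -0.025 for CIITA partners, -0.033 to 0.093 for the interferon gamma route, 0.065 to 0.30 for endosomal enzymes, 0.024 to 0.15 for CD74 ligands, -0.031 to 0.16 for costimulation, 0.015 to 0.21 for leukocyte and 0.0067 to 0.057 for epithelial markers. With arrays scaled to equal medians, which put all probes at 0.16, the lists had medians of 0.21 for CIITA partners, 0.22 for the interferon gamma route, 0.53 for endosomal enzymes, 0.40 for CD74 ligands, 0.14 for costimulation and 0.30 for epithelial markers. The authors' values gave 0.20 for CD74 ligands and 0.067 for epithelial markers. The brightest probe of each gene gave 1.58 for other class II genes, -0.11 for CIITA partners, 0.10 for the interferon gamma route, 0.30 for CD74 ligands and 0.29 for epithelial markers. The mean of probes gave 0.84, -0.11, 0.10, 0.30 and 0.11 in that order. With no detection filter the medians were 0.064 for other class II genes, 0.032 for endosomal enzymes and -0.018 for leukocyte markers. With detection p under 0.01 on all 4 arrays they were 2.88 over 3 probes of other class II genes, 0.87 over 2 leukocyte probes and -0.030 over 5 epithelial probes. With the 147 irregular probes removed they were 1.86 for other class II genes, -0.084 for CIITA partners, 0.081 for the interferon gamma route, 0.28 for CD74 ligands, 0.14 for costimulation and 0.50 for leukocyte markers. Signal close to background limits what can be said of CIITA, HLA-DOA and HLA-DQB1.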

Other observations

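The regular detection p-values were whole multiples of 0.0013, as 770 negative controls would give, and those of 147 probes were not. Of these probes 144 had a detection p under 0.05 on all 4 arrays. All 4 EGFR probes were among them, the only ones of any list used here. ILMN_1755535, an EGFR probe with signals of 129 and 137 on the wild type arrays and 132 and 136 on the knockout arrays, counted as detected everywhere, whereas CTSS at 138 on wild type replicate 2 did not. With the 147 probes in, the inferred negative control spread was 83.9, 59.3, 52.1 and 47.2 signal units on wild type 1, wild type 2, knockout 1 and knockout 2, and without them 11.2, 10.9, 10.7 and 10.1. Leaving them out moved values near background, class II and other. The difference went from 0.20 to 0.72 at CIITA, from 0.27 to 0.95 at HLA-DQB1, from 2.16 to 2.76 at HLA-DRB6 probe ILMN_2066060, from -0.26 to -0.79 at NFYB, a subunit of NF-Y named after its values were seen, from 1.70 to 2.95 at the dimmest CD74 probe and from 3.52 to 4.41 at HLA-DPA1, whereas HLA-DRA at ILMN_2157441 went from 2.93 to 2.89. How these p-values arose was not tested.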
